A study of Rattus norvegicus with 6 samples.

Results

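Genes of the nuclear envelope were followed in rat cortical astrocytes that had formed a tissue-engineered rostral migratory stream (TE-RMS) and in the same astrocytes grown as planar cultures. The group holds 6 genes, Lmna, Lmnb1, Emd, Sun2, Ndc1 and Ranbp2, out of 23940 genes in the count table. They were chosen as nuclear lamina, LINC complex and nuclear pore genes among the 1517 genes with the smallest p-values of the study's own comparison of TE-RMS with planar astrocytes, because gene symbols were read for these 1517 identifiers alone. The difference between the conditions therefore selected the members, and it is described here without a test. Within that ranking Lmna stood at place 31, Sun2 at 628, Ndc1 at 972, Ranbp2 at 1092, Emd at 1154 and Lmnb1 at 1312, so Lmnb1 was the member nearest to the end of the list, and genes beyond it are not named here. All 6 genes passed the filter of at least 10 counts in total.

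Astrocytes came from cortices of postnatal Sprague-Dawley pups and were used at passage 4, and both conditions were sampled at 4 days in vitro in the same medium. TE-RMS libraries were made from TE-RMSs that had self-assembled in collagen-coated agarose microchannels, were chosen for complete bundling, were stored in RNAlater and were pooled into 1 sample per run. Planar libraries were made from fresh wells of astrocytes plated on collagen. Each TE-RMS pool came from 3 sequential fabrication days with 1 flask per day, and planar wells were plated on the last of these days. No allele or drug separated the groups. Culture format, choice by bundling, the days and flasks that were pooled, and RNA preservation changed together and cannot be told apart. Each of 3 runs, named July, September and October after their labels, gave 1 library of each condition from its own animals, so each group had 3 libraries and the pool hides the spread among single TE-RMSs. By run, in that order, the totals were 70682593, 70478784 and 56483332 counts for planar astrocytes and 54601354, 77277336 and 64537115 for TE-RMS astrocytes. Levels are given as CPM, the count of a gene relative to the TMM-scaled total of its library, and wherever 3 values of a condition follow each other they belong to the July, September and October runs. Levels are not divided by transcript length, so they serve to compare libraries and not genes.

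The nuclear lamina is a meshwork of intermediate filament proteins under the inner nuclear membrane, made of A-type lamins, which stiffen the nucleus, and B-type lamins. Emerin and the SUN proteins sit in the inner membrane. SUN proteins bind nesprins of the outer membrane, and this linker of nucleoskeleton and cytoskeleton (LINC) carries cytoskeletal force to the lamina. Nuclear pore complexes cross both membranes and carry traffic in and out of the nucleus. Nuclei of TE-RMS astrocytes appear elongated and those of planar astrocytes round under the microscope, which makes these genes of interest here. No shape value was available per library in the files used here, so no relation between nuclear shape and transcript level was computed.

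The lamina and inner membrane genes Lmna, Lmnb1, Emd and Sun2 had less RNA counted, and Ndc1 and Ranbp2 of the nuclear pore more, in the TE-RMS library of every run. Of all tested genes, 26.8% were lower and 22.5% were higher in TE-RMS astrocytes in all 3 runs. The 3 libraries of the conditions did not overlap for any of the 6 genes. Without regard to direction, 29.3% of the 16331 tested genes had no overlap, 16.1% with TE-RMS lower and 13.2% with TE-RMS higher. In the fit across all genes with edgeR's quasi-likelihood test and the run as a block, 18.6% of genes had an adjusted p under 0.05, 9.28% lower and 9.36% higher in TE-RMS. Without the block, 1441 genes passed in place of 3044. Since the members were picked from this contrast, their place in it is given as a description only. The study's own gene set analysis found no significant enrichment of the nuclear lamina, inner membrane or pore sets. The 6 genes do not stand for those sets.

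**Figure D1:**
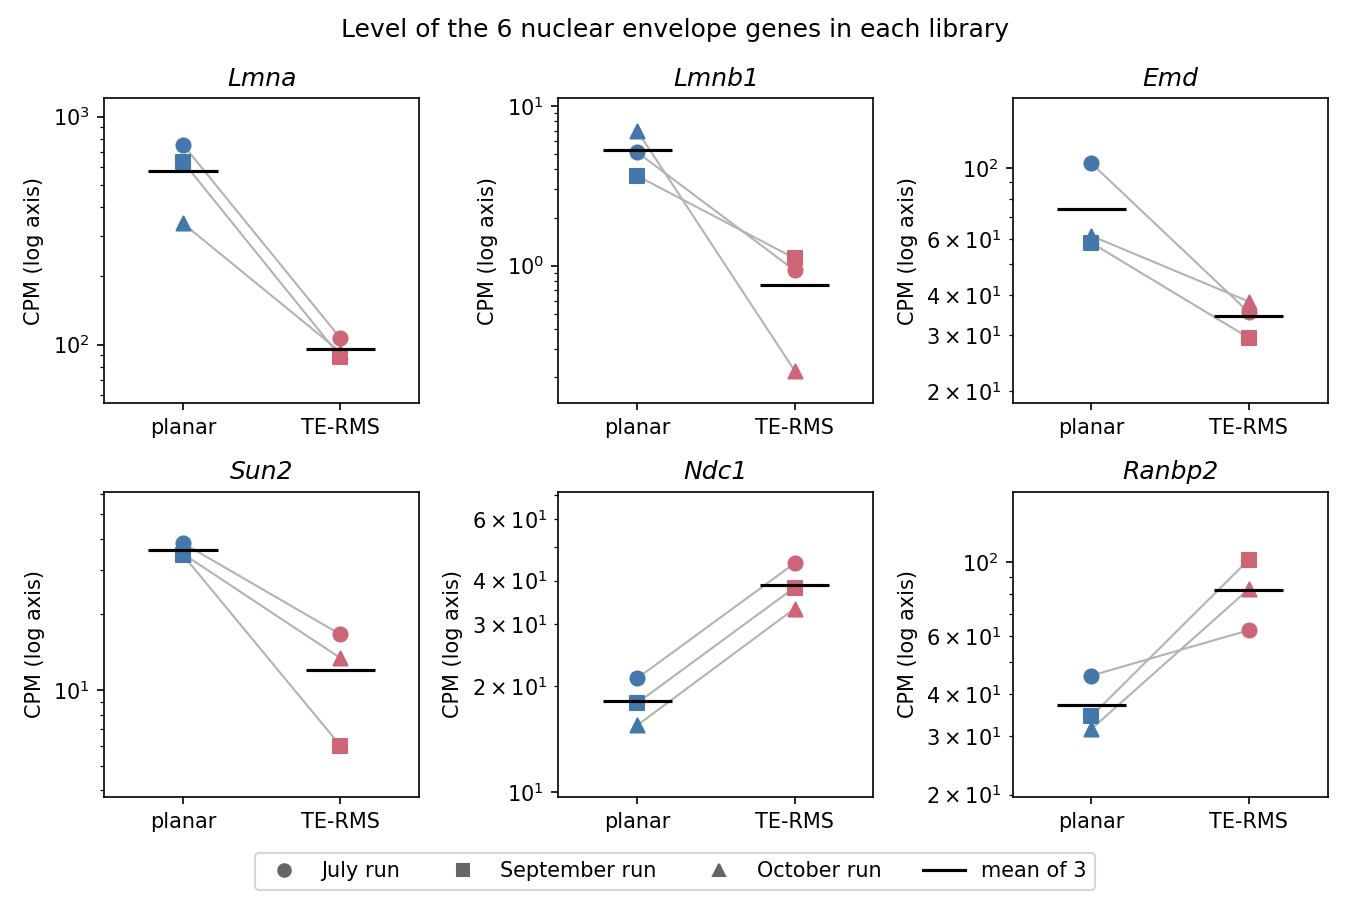
CPM of each gene (vertical log axis, its own range per panel) in planar and TE-RMS libraries; symbols mark the run, grey lines join the libraries of 1 run and black bars are means of 3 libraries. The first 4 panels go down and the last 2 go up from planar to TE-RMS in every run, and Lmna narrows from 340.4 to 754 CPM in planar libraries to 88.5 to 107 CPM in TE-RMS libraries.

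Lmna (ENSRNOG00000019638, chromosome 2 of mRatBN7.2 from 173939751 to 173960423, minus strand) encodes lamins A and C, splice products of 1 gene that the gene counts do not separate. It had 754, 635 and 340.4 CPM in planar and 107, 88.5 and 92.9 CPM in TE-RMS libraries. Planar libraries spread over 2.21-fold from the lowest to the highest and TE-RMS libraries over 1.21-fold, with October lowest among the planar ones. Lmna was 7.07 times lower in TE-RMS astrocytes in July, 7.17 times in September and 3.66 times in October. The smaller October difference went with the lower planar level, since its TE-RMS level lay between those of the other runs. The mean of the 3 log2 ratios was -2.51 ± 0.55 (SD, n = 3), and 9.39% of tested genes had a lower fitted log2 fold change.

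Lmnb1 (ENSRNOG00000013774, chromosome 18 from 50175874 to 50214502, plus strand) encodes lamin B1, a B-type lamin that stays attached to the inner membrane through a lipid anchor. It was counted with few reads, 347, 264 and 423 in planar and 53, 80 and 14 in TE-RMS libraries. These correspond to 5.13, 3.65 and 7.00 CPM in planar and 0.935, 1.11 and 0.22 CPM in TE-RMS astrocytes. October held both the highest planar and the lowest TE-RMS level. The October TE-RMS library had a count for 13755 genes, against 14938 in the July and 15262 in the September TE-RMS library. The 95% exact Poisson interval of the October TE-RMS level, which covers counting error only, was 0.121 to 0.37 CPM and lay below the levels of the other 2 TE-RMS libraries. Lmnb1 was 5.49 times lower in July, 3.28 times in September and 31.7 times in October. The log2 ratios had a mean of -3.05 and the widest spread of the 6 genes, 1.72 (SD, n = 3). Its fitted log2 fold change was -2.95 with all runs and -2.05 without October.

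Emd (ENSRNOG00000058882, chromosome X from 152038998 to 152045807, plus strand) encodes emerin, an inner membrane protein that binds lamins and tethers chromatin through a small DNA-bridging partner. It had 103, 58.3 and 61.2 CPM in planar and 35.3, 29.4 and 38.2 CPM in TE-RMS libraries. July stood above the other planar libraries, and the TE-RMS libraries lay within 1.3-fold of each other. Emd was 2.92 times lower in July, 1.98 times in September and 1.6 times in October, a mean log2 ratio of -1.07 ± 0.44 (SD, n = 3).

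Sun2 (ENSRNOG00000015177, chromosome 7 from 111275380 to 111292553, minus strand) encodes the inner membrane component of the LINC bridge that is found in most cell types together with SUN1. It had 38.4, 34.5 and 34.9 CPM in planar and 16.7, 6.03 and 13.4 CPM in TE-RMS libraries. Sun2 was the member with the least spread among planar libraries, at 1.11-fold, while TE-RMS libraries spread over 2.77-fold with September lowest. It was 2.3 times lower in July, 5.71 times in September and 2.6 times in October, a mean log2 ratio of -1.70 ± 0.71 (SD, n = 3).

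Ndc1 (ENSRNOG00000010620, chromosome 5 from 122155967 to 122202291, plus strand) encodes a membrane-spanning nucleoporin that anchors the pore complex where inner and outer membranes meet. It had 21.1, 17.9 and 15.5 CPM in planar and 44.8, 38.2 and 33.3 CPM in TE-RMS libraries. The order of the runs was the same in both conditions. Ndc1 was 2.13 times higher in TE-RMS astrocytes in July, 2.13 times in September and 2.15 times in October. The SD of its log2 ratios was 0.0081 around a mean of 1.10, below the counting error of a single ratio, which was 0.0477 to 0.0567. Only 6 of the 16331 tested genes had a smaller SD of the ratios, and agreement finer than the counting error carries no further information.

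Ranbp2 (ENSRNOG00000000796, chromosome 20 from 26442217 to 26493481, plus strand) encodes the largest protein of the filaments on the cytoplasmic face of the pore, which binds the GTPase Ran and acts as a SUMO ligase. It had 45.6, 34.5 and 31.5 CPM in planar and 62.4, 102 and 82.9 CPM in TE-RMS libraries. July had the highest planar and the lowest TE-RMS level. Ranbp2 was 1.37 times higher in July, 2.95 times in September and 2.63 times in October, a mean log2 ratio of 1.14 ± 0.60 (SD, n = 3).

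**Figure D2:**
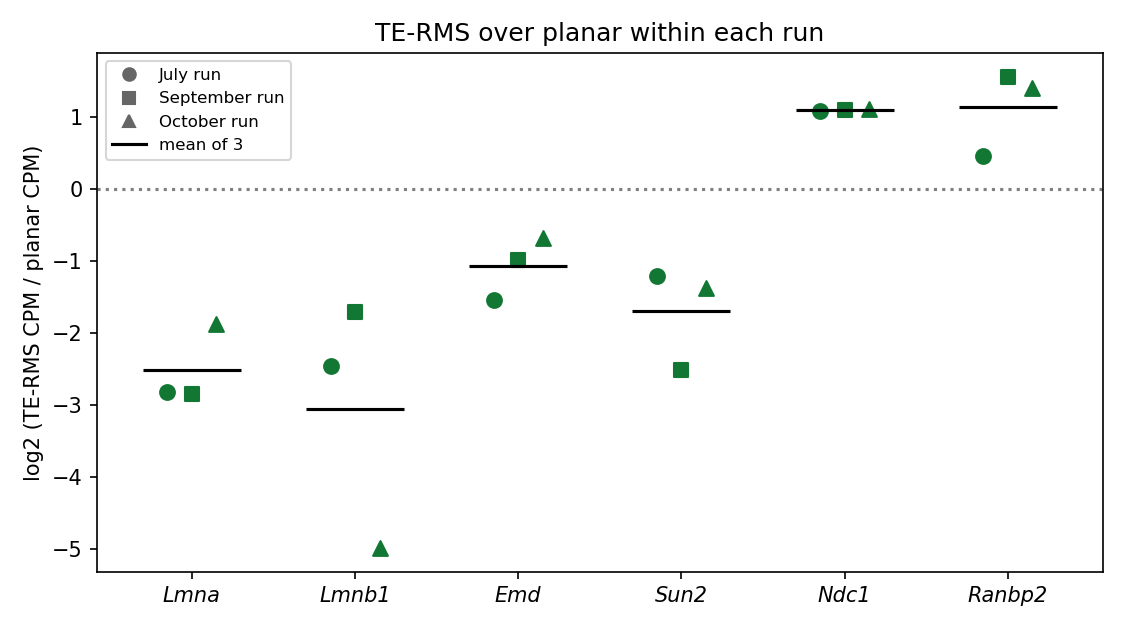
Log2 ratio of TE-RMS over planar CPM within each run for each gene; symbols mark the run, black bars are means of 3 runs and the dotted line is no difference. Lmnb1 spreads most, from -1.71 to -4.99, and the 3 symbols of Ndc1 coincide near 1.10.

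The 2 lamin genes were compared within each library as the ratio of their counts, in which the library size cancels. The values are relative to the same pair of transcripts in every library and do not give the ratio of lamin molecules, since transcript lengths were not used. The Lmna to Lmnb1 ratio was 147, 174 and 48.7 in planar and 114, 79.6 and 421 in TE-RMS libraries. Among planar libraries October had the lowest ratio and among TE-RMS libraries the highest, and the ranges of the conditions overlapped. The 95% exact binomial interval of the October TE-RMS ratio ran from 251 to 771 and that of the October planar ratio from 44.2 to 53.7. In July the intervals were 132 to 164 in planar and 87.2 to 153 in TE-RMS astrocytes, and they overlapped. In September the intervals were 154 to 197 and 63.8 to 101 and did not overlap. The log2 ratio of TE-RMS over planar was -0.36 in July, -1.13 in September and 3.11 in October, a mean of 0.54 ± 2.26 (SD, n = 3). Both lamin genes were lower in TE-RMS astrocytes in every run, but their ratio had no common direction.

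The Lmna to Emd ratio, in contrast, was lower under TE-RMS culture whichever run was taken. It was 7.3, 10.9 and 5.56 in planar and 3.02, 3.01 and 2.43 in TE-RMS libraries, with no overlap between the conditions. The Lmna to Sun2 ratio was 19.6, 18.4 and 9.76 in planar and 6.4, 14.7 and 6.91 in TE-RMS libraries, lower in each run but with overlapping ranges. The Emd to Sun2 ratio was 2.69, 1.69 and 1.75 in planar and 2.12, 4.87 and 2.84 in TE-RMS libraries, lower in July and higher in the other runs. The Ndc1 to Ranbp2 ratio was 0.462, 0.52 and 0.491 in planar and 0.718, 0.376 and 0.401 in TE-RMS libraries, higher in July and lower in the other runs. Among the 6 pairs of lower genes, 3 had a ratio that moved in the same direction in all 3 runs, and the pair of higher genes did not. For pairs of a lower with a higher gene the direction was fixed by the choice of the members.

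**Figure D3:**
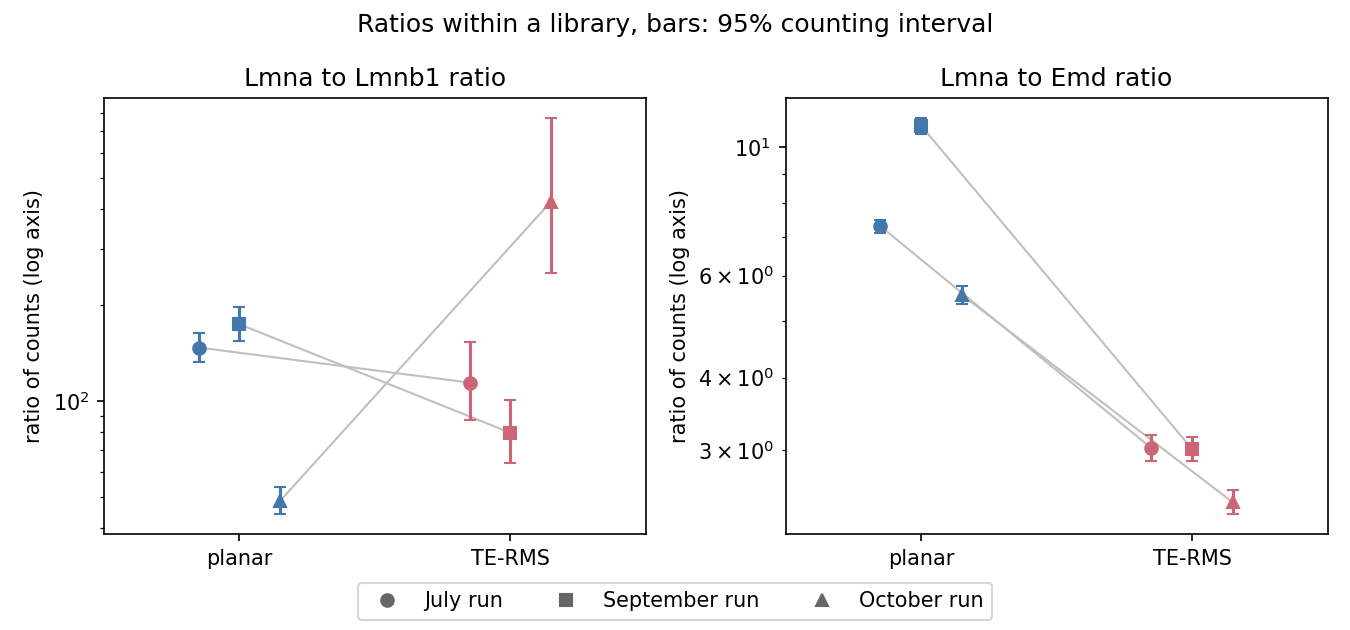
Ratio of Lmna to Lmnb1 counts (left) and of Lmna to Emd counts (right) in each library on a log axis; symbols mark the run, bars are 95% exact binomial intervals for counting error and grey lines join the libraries of 1 run. The left lines cross, with October rising from 48.7 to 421, and all right lines go down to between 2.43 and 3.02.

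Differences between runs had no part in choosing the members, so they were tested. A quasi-likelihood F test in edgeR over both run terms, fitted beside the condition, found an adjusted p under 0.05 for 525 genes, which is 3.21% of the genes tested, and for 0 of the 6 members. Their adjusted p-values ran from 0.377 for Lmna to 0.94 for Lmnb1, and 0 members had an unadjusted p under 0.05, with the lowest at 0.0711 for Lmna. DESeq2's likelihood ratio test of the run terms called 1245 genes, and also 0 of the 6 members. In edgeR, 224 genes passed when at least 10 counts in 3 libraries were required. Each run holds 2 libraries, and a p that misses the threshold does not show that the runs were alike.

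Spread within a condition was compared with that of other genes on log2 CPM. The SD of Lmna was 0.60 in planar and 0.14 in TE-RMS libraries, and 65.1% and 13.4% of tested genes had a smaller one. The order was opposite for Sun2, with 0.09 in planar and 0.77 in TE-RMS libraries. For Lmnb1 the SDs were 0.47 and 1.20. The median over all tested genes was 0.40 in planar and 0.46 in TE-RMS libraries. Each SD rests on 3 libraries, and the difference between the conditions in spread was not tested.

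**Figure D4:**
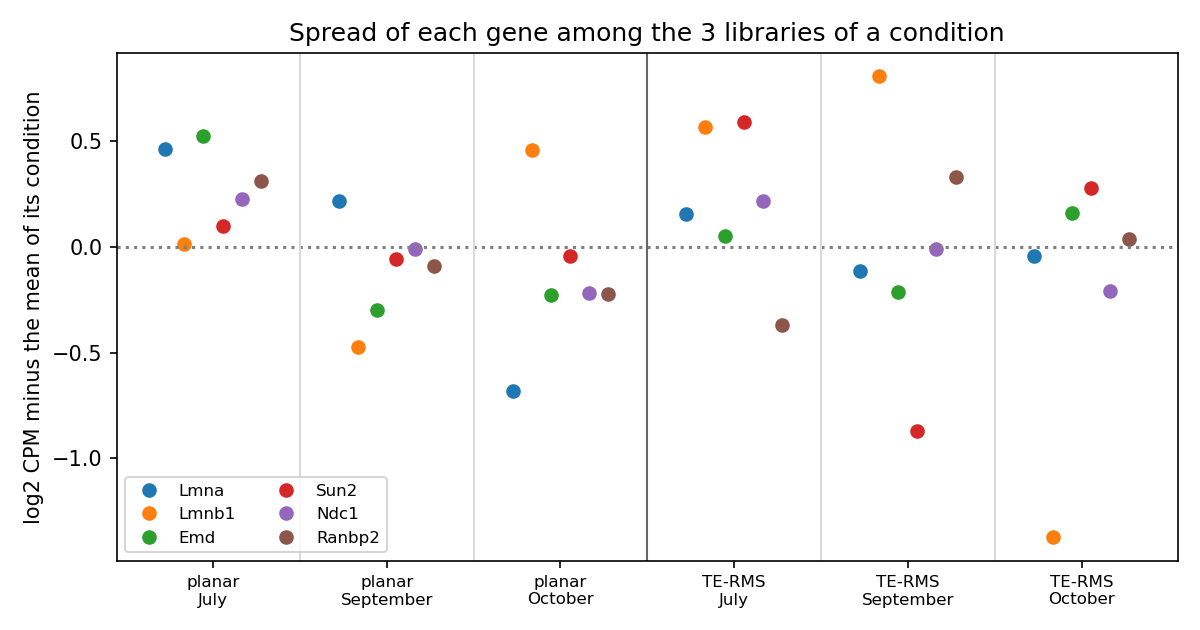
Log2 CPM of each gene in each library minus the mean of its condition, so that the difference between conditions is removed; colours mark the genes. The lowest point is Lmnb1 in the October TE-RMS library at -1.38, followed by Sun2 in the September TE-RMS library at -0.87.

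After the mean of each condition was removed, Lmna deviated together with Ndc1 across the 6 libraries (Pearson r = 0.78) and with Emd (r = 0.59). Sun2 and Ranbp2 had an r of -0.65, but they deviated in opposite directions only in the July and September TE-RMS libraries. In every planar library and in the October TE-RMS library their deviations had the same sign. Among TE-RMS libraries Sun2 was highest and Ranbp2 lowest in July, and Sun2 was lowest and Ranbp2 highest in September. Lmnb1 had an r of -0.22 with Lmna. These values are descriptions over 6 libraries that share runs and library depth.

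Genes with the pattern most like that of Lmna were sought by the root mean square difference of centred log2 CPM over the 6 libraries. Among genes with a symbol they were Bcam, an adhesion receptor, at 0.26, LOC689800 at 0.33, Dmpk, a protein kinase of muscle, at 0.33, Hspa1b, an inducible heat shock protein, at 0.37 and Rab3d, a secretory GTPase, at 0.38. Bcam had 6.36, 5.24 and 3.54 CPM in planar and 0.758, 1.1 and 0.756 CPM in TE-RMS libraries, and 3 tested genes without a symbol here lay nearer. By Pearson correlation in place of this difference, 0 of the 5 names remained, and Fhl3, Znrf1, Nes, Myo1c and Hdgf were nearest. For Ranbp2 the nearest were Tmed2, a cargo receptor of the secretory pathway, and Zfp800, both at 0.12, then Hdac2, a histone deacetylase, Crbn and Pnn, all at 0.14. Tmed2 had 675, 634 and 539 CPM in planar and 1010, 1519 and 1229 CPM in TE-RMS libraries.

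**Figure D5:**
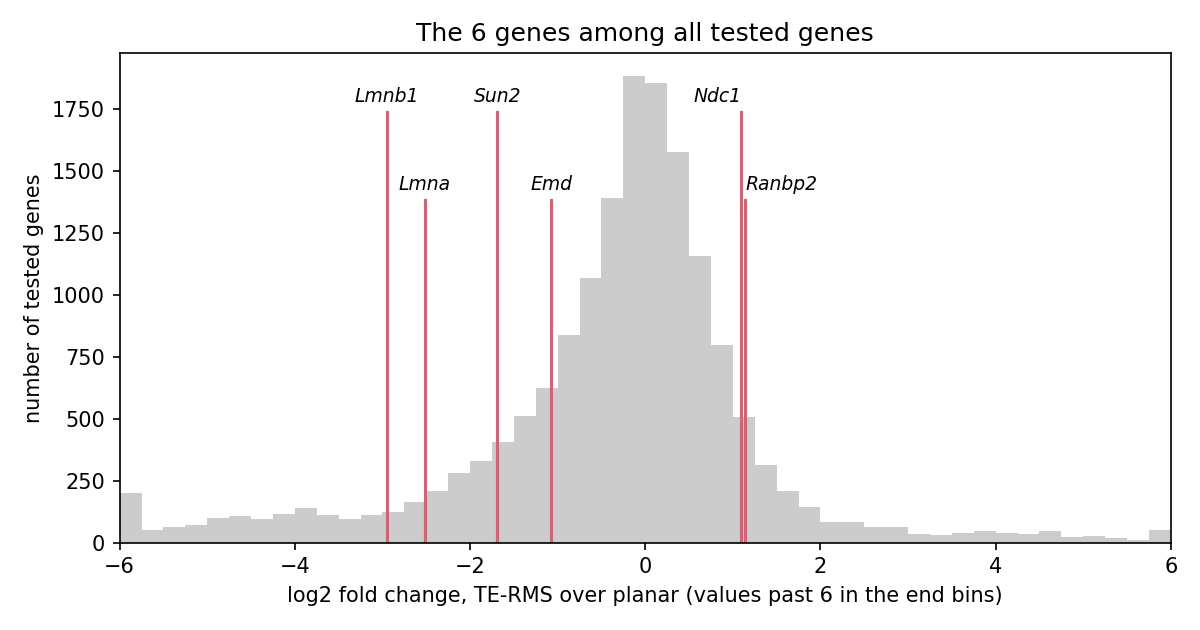
Number of tested genes by fitted log2 fold change of TE-RMS over planar (grey bars, 16331 genes, values beyond the axis in the end bins), with red lines at the 6 genes. Lmnb1 at -2.95 and Lmna at -2.52 lie farthest from 0, and Ndc1 and Ranbp2 lie at 1.10 and 1.14. The median of all genes was -0.12.

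Other genes of the nuclear envelope and its traffic were taken from lists, of which only those with a symbol could be examined. Since the symbols belong to the genes with the smallest p-values, passing the test was largely fixed by that choice. Of 24 lamina and LINC genes the 4 with a symbol were the members themselves, so Lmnb2, Sun1 and the nesprins are not analysed here. Of 32 pore genes 3 could be paired, and the additional gene was Tmem209, an envelope protein. Tmem209 had 31.7, 31.8 and 17.4 CPM in planar and 70, 80.8 and 64.7 CPM in TE-RMS libraries, and its log2 fold change of 1.46 passed the test.

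Of 38 nuclear transport genes 8 could be paired, of which 3 fell and 5 rose in TE-RMS astrocytes, with a median log2 fold change of 0.91. Kpna3, an importin alpha that binds cargo with a nuclear localization signal, rose most, from 47.7, 39.5 and 47.9 CPM in planar to 155, 187.5 and 117 CPM in TE-RMS libraries. The RNA export factor Thoc1 (0.88), the cap-binding protein Ncbp1 (0.94), the importin beta family member Ranbp6 (0.96) and Agfg1 (0.95) rose by smaller log2 fold changes. Tnpo2, an import receptor, fell by 1.34 on the log2 scale, from 27.7, 25.8 and 26.8 CPM to 12.3, 11.1 and 8.57 CPM. Rcc2 and Agfg2 fell by 1.58 and 1.75. Agfg2 was highest in the October library of both conditions.

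Of 14 linker and intermediate filament genes 4 could be paired, of which 3 fell and 1 rose. Plec encodes plectin, a cytolinker that ties intermediate filaments to the outer nuclear membrane, and had 125, 103 and 105 CPM in planar and 39.8, 12.3 and 24.6 CPM in TE-RMS libraries (log2 fold change -2.26). As with Sun2, the September TE-RMS library was the lowest. Nes, the intermediate filament protein nestin, had 81.8, 64.9 and 38.9 CPM in planar and 22.8, 19.2 and 18.6 CPM in TE-RMS libraries (-1.56), with a planar spread like that of Lmna. The dynein light chain gene Dynll1 fell by 0.89 and the dynein light intermediate chain gene Dync1li2 rose by 0.89.

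Of 15 genes for chromatin at the nuclear edge 5 could be paired, of which 3 fell and 2 rose. The linker histone gene H1f0 had 364, 399 and 378 CPM in planar and 187, 187 and 175 CPM in TE-RMS libraries (-1.06). H1f10, another linker histone gene, and Ehmt2, a methyltransferase of histone H3, fell by 1.49 and 1.97. Hdac2 and Rb1, the retinoblastoma protein that binds A-type lamins, rose by 1.09 and 1.12. Of 15 cell division genes 10 could be paired, 5 that fell and 5 that rose. Those that fell were Pclaf (-1.70), Nusap1 (-1.41), Cdca3 (-1.72), Stmn1 (-0.999) and Hmgb2 (-1.24). Those that rose were the checkpoint kinases Chek1 (1.34) and Wee1 (1.18), Smc2 (1.07), a condensin subunit that compacts mitotic chromosomes, Gtse1 (1.18) and Atad2 (1.22). The median of the cell division list was 0.04. All 12 genes of a list of targets of SRF and YAP, transcription regulators that answer to cell tension, fell, with a median of -3.35, and this list was known from earlier results to fall. Srf itself had 18.7, 9.66 and 13.9 CPM in planar and 2.29, 1.25 and 2.46 CPM in TE-RMS libraries.

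Of 11 astrocyte markers 4 could be paired, and 0 of them were without counts in any library. Slc1a3, a glutamate transporter, had 241, 253.5 and 275 CPM in planar and 722, 674 and 882 CPM in TE-RMS libraries, and Gja1, a gap junction protein, had 275, 282 and 222 CPM in planar and 543, 814 and 862 CPM in TE-RMS libraries. These 2 genes took most of the counts of the paired markers in TE-RMS libraries, while Fgfr3 fell by 2.57 on the log2 scale. Gfap and the other markers are not analysed here. The paired markers together summed to 622, 606 and 755 CPM in planar and 1293, 1513 and 1801 CPM in TE-RMS libraries. Other cell types could be checked by few genes. Cd68, the 1 of 7 microglia markers with a symbol, had 1.3, 15.6 and 0.778 CPM in planar and 8.7, 85.4 and 3.75 CPM in TE-RMS libraries. Of 5 neuron markers Snap25 and Map2 were paired and summed to 12.7, 7.63 and 5.94 CPM in planar and 34.9, 91.4 and 18.1 CPM in TE-RMS libraries. Snap25 had 0.0148, 3.93 and 0.0496 CPM in planar and 0.459, 60.8 and 3.5 CPM in TE-RMS libraries. Map2 had 12.7, 3.7 and 5.89 CPM in planar and 34.5, 30.5 and 14.6 CPM in TE-RMS libraries. Cd68 and Snap25 were thus highest in the September library of both conditions, and Map2 was highest in July in both. Of 8 fibroblast and mural markers 5 were paired and summed to 6766, 1054 and 2018 CPM in planar and 572, 193 and 287 CPM in TE-RMS libraries. Tagln took most of the counts in planar libraries, with 5917, 615 and 1316 CPM, and had 391, 47.4 and 58.3 CPM in TE-RMS libraries, where Col1a2 had 94.1, 94.1 and 158 CPM. Among oligodendrocyte lineage markers, Cspg4 had 4.02, 4.91 and 5.09 CPM in planar and 0.705, 0.862 and 0.0945 CPM in TE-RMS libraries, and Mal had 17.2, 4.53 and 1.5 CPM in planar and 1.83, 1.54 and 0.0315 CPM in TE-RMS libraries. The part of other cell types in the levels of the 6 genes was not tested, and in these bulk libraries fewer cells of a type and less RNA per cell cannot be told apart. Without the September run, both libraries of which stood apart in Cd68 and Snap25 but not in Map2, the log2 fold changes were -2.35 for Lmna, -3.68 for Lmnb1, -1.11 for Emd, -1.29 for Sun2, 1.10 for Ndc1 and 0.92 for Ranbp2.

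RefSeq promoters on GRCr8 were available for 5 of the 6 genes, all but Ndc1. The 250 bases before the annotated start are printed for Lmna and Sun2, which were lower, and for Ranbp2, which was higher, so that the motif matches given after them can be read in place. Capitals mark matches to the motifs named after them, and each sequence is given 5′ to 3′ on the strand of its gene. The Lmna window is chr2:176258236-176258485 (minus strand) and lies before 1 of the annotated starts of the gene, the Sun2 window is chr7:113172895-113173144 (minus strand) and the Ranbp2 window is chr20:26985064-26985313 (plus strand).
Lmna: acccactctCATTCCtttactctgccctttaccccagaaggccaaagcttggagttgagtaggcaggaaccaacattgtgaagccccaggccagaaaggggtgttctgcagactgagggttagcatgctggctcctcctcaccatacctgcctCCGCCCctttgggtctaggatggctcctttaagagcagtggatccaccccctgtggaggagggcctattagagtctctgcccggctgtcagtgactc
Sun2: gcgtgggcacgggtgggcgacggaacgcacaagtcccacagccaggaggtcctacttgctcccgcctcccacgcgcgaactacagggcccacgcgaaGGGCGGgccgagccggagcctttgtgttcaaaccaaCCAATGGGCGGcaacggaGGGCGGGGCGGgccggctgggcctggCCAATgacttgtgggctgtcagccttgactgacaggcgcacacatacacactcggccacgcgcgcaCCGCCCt
Ranbp2: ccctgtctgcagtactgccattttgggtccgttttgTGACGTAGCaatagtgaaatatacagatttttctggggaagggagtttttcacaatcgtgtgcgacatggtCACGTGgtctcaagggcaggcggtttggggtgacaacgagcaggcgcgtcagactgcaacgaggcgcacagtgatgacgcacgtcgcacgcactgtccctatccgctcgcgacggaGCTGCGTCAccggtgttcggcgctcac

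The Sun2 window had 68.8% G and C, against 56.4% for Lmna, 56.8% for Ranbp2, 61.2% for Emd and a median of 51.2% over all 33469 promoters. Both strands were searched for 8 motifs, and matches may overlap each other. The GC box GGGCGG was found 5 times in Sun2 and 1 time in Lmna, and 30.5% of all promoters held it. CCAAT was found in Sun2 and Lmnb1 and in 34% of all promoters. The TEAD motif GGAATG was found in Lmna, from -241 to -236 relative to the start on the opposite strand, and in 12.1% of all promoters. The antioxidant response element TGACNNNGC was found 2 times in Ranbp2 and in 10.1% of all promoters. The E-box CACGTG was found in Lmnb1 and Ranbp2 and in 5.59%. The CArG box bound by SRF, the AP-1 motif TGANTCA and the CRE motif TGACGTCA were found in 0 of the 5 windows, against 1.5%, 6.34% and 1.59% of all promoters. A match is a stretch of letters and not a bound site, and the absence of a match concerns these windows only.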

How the data were processed

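Total RNA was extracted, and 6 libraries, 3 TE-RMS and 3 planar, were made from it with a non-stranded mRNA preparation for low input and sequenced. The authors trimmed reads with fastp, quantified transcripts with Salmon on Ensembl's mRatBN7.2 models and totalled the estimates of each gene. The deposited values are estimated counts given as whole numbers, not normalized, so no rounding was needed. Reads that fit several transcripts are divided among them by Salmon, and without strand reads of overlapping opposite genes stay together. Samples were grouped by their titles.

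Genes were kept from a sum of 10 counts over the libraries, which left 16331. They were TMM-scaled and fitted in edgeR 4.0.16 (R 4.3.3). Its quasi-likelihood test took the run as a block, since the study paired its runs, with Benjamini-Hochberg adjustment at 0.05. Fold changes used a prior count of 0.125 and log2 CPM a prior count of 2. Ratios within runs used no prior count. The pairing was checked by correlating, across genes, the deviations of planar and TE-RMS libraries from their condition means, which gave 0.18 to 0.27 within a run and -0.16 to -0.07 across runs. Libraries of 1 condition differed by a chi-square per degree of freedom of at least 270, far beyond sampling noise. Counting intervals cover counting error only. The fits were tested on simulated data.

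Symbols and positions came from the study's table of differential expression. Its order by p-value set which genes had a symbol and gives the places of the members, and its fold changes and p-values were not otherwise used. Members and lists were chosen with earlier results of these data known. Named genes are the members, the 5 nearest to Lmna and to Ranbp2, and list genes that could be paired. Alternatives were DESeq2 1.42.0, other scalings and filters, no block and each run left out. Promoter sequences are RefSeq's, of GRCr8, matched by symbol, and no coordinates were converted between builds. Values of 1 cell type marker are not reported here.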

Additional observations from a re-analysis of the deposited data

Results flagged for a closer look

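The Lmna to Lmnb1 ratio was singled out because the runs went in opposite directions under the same comparison. The log2 ratio of TE-RMS over planar was -0.36 in July and -1.13 in September but 3.11 in October. Each run has 1 library per condition, so the difference between the runs was not tested. The October value rests on 14 Lmnb1 counts in the TE-RMS library and 423 in the planar library. That TE-RMS library also had fewer genes with a count than the other TE-RMS libraries, 13755 against 14938 and 15262. Whether this bears on the Lmnb1 count was not tested.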

How the results depend on the processing

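The direction of the fold change of all 6 genes held in each of 54 alternative values, but choosing the members on this contrast largely fixed that outcome. Movement was measured against the SD of the run ratios, a lenient measure when a run is left out, since the same runs set it. Of the 54 values, 49 moved by less than this SD. The other 5 belonged to Ndc1, whose SD was 0.0081, and its log2 fold change was 1.11 with DESeq2, 1.11 with DESeq2 size factors, 1.05 with upper-quartile scaling, 1.13 without a filter and 1.10 to 1.13 with a run left out. With a run left out, Lmna ran from -2.80 to -2.35, Lmnb1 from -3.68 to -2.05, Emd from -1.23 to -0.83, Sun2 from -1.94 to -1.29 and Ranbp2 from 0.92 to 1.48, and the mean log2 Lmna to Lmnb1 ratio from -0.75 without October to 1.37. The number of genes that differed between conditions was 1441 without the replicate block in place of 3044, and 2081 to 3210 with a run left out. The number that differed between runs was 1245 with DESeq2 and 224 with at least 10 counts in 3 libraries, in place of 525, and 366 to 746 with a run left out. The cause of these changes was not tested. In 48 alternative tests of runs, 0 gave a member an adjusted p under 0.05 (0.226 to 0.987). The nearest genes to Lmna and Ranbp2 shared 0 and 2 of 5 names when ranked by Pearson correlation. The ratio per transcript length was not run because transcript lengths were not at hand. Depth limits Lmnb1 most, at 14 to 80 counts in TE-RMS libraries.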
